A study of Mus musculus with 48 samples.

Results

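The genes that encode collagen chains were followed in the pars tuberalis of male CBA/N mice kept under 4 lighting regimes. A gene was counted as a member when its symbol in the array annotation read Col, a number, the letter a and a number. The rule used names and no change in level, and it was met by 42 of the 18194 genes that had a probe set with a single symbol. For the 27 members with several probe sets, the brightest one, by its mean over the 48 arrays, stood for the gene.

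Each array held RNA pooled from the punched pars tuberalis of 25 mice. In each regime 2 arrays were made at each of 6 times of day, 4 h apart, which gave 12 arrays a regime. All mice were bought 3 weeks after birth and first spent 3 weeks under short days with 8 h of light. Short-day mice then stayed on that schedule, long-day mice moved to 16 h of light for 2 weeks, and the labels give an age of 8 weeks to both. The remaining regimes covered the first long day after the 3 weeks of short days, in mice labelled as 6 weeks old. In the advance regime light came on 8 h earlier, at ZT16 of the short-day schedule, and in the delay regime darkness came 8 h later. ZT is the labelled zeitgeber time, in hours from lights-on of the short-day or long-day schedule, and by the sample titles ZT0 of the long days fell 4 h earlier on the clock than ZT0 of the short days. The whole procedure was carried out again to give the second array of each pair, so p-values measure the spread between such pools of mice. Short-day mice differed from first-day mice in labelled age and time on the schedule as well as in light, and these cannot be told apart for the day as a whole.

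Collagens are proteins of the extracellular matrix in which chains wind into a triple helix. Fibrillar collagens form the fibres of connective tissue, network-forming collagens build basement membranes, fibril-associated collagens sit on fibres, and the transmembrane and multiplexin collagens lie at cell surfaces and around vessels. The pars tuberalis is a thin layer of pituitary tissue around the stalk and under the median eminence, beside meninges and portal vessels, and it reads the nightly melatonin signal that encodes day length.

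Levels are the deposited log2 values after RMA, the standard summary of Affymetrix probe sets, and array medians lay between 6.98 and 7.03. Tshb and Cga, the subunit genes of thyrotropin that mark the pars tuberalis, had means of at least 10.54 and 13.58 in every regime. Arrays with a high level of growth hormone or prolactin mRNA, markers of the neighbouring pars distalis (above 10 on the log2 scale), numbered 1 in short days, 3 in long days, 1 in advance and 1 in delay. The difference between the 3' and 5' actin control probe sets, a sign of RNA quality, was 1.89 ± 0.12 in short days, 1.65 ± 0.12 in long days, 1.69 ± 0.09 in advance and 1.85 ± 0.13 in delay (SD, n = 12 arrays each). Two-sided limma tests were fitted over all 18194 genes, a gene passed at a Benjamini-Hochberg adjusted p under 0.05, and errors of differences are standard errors. Col6a5 and Col17a1 lay under the first quartile of every array, and the other 40 members were above it on at least some arrays. In pooled tissue, fewer cells of a type and less RNA per cell cannot be told apart.

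After 2 weeks of long days most collagen genes that changed were lower. Of the 42 members 27 passed, 20 of them lower and 7 higher in long than in short days. Across all genes 29.1% passed as lower and 17.6% as higher. The median difference was -0.12 for the members and -0.03 for all genes, and it was negative for 34 members and for 59.2% of all genes. Among the 20 members that fell, 15 were lower at all 6 times of day, a count that their choice as lower in the mean favours.

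**Figure D1:**
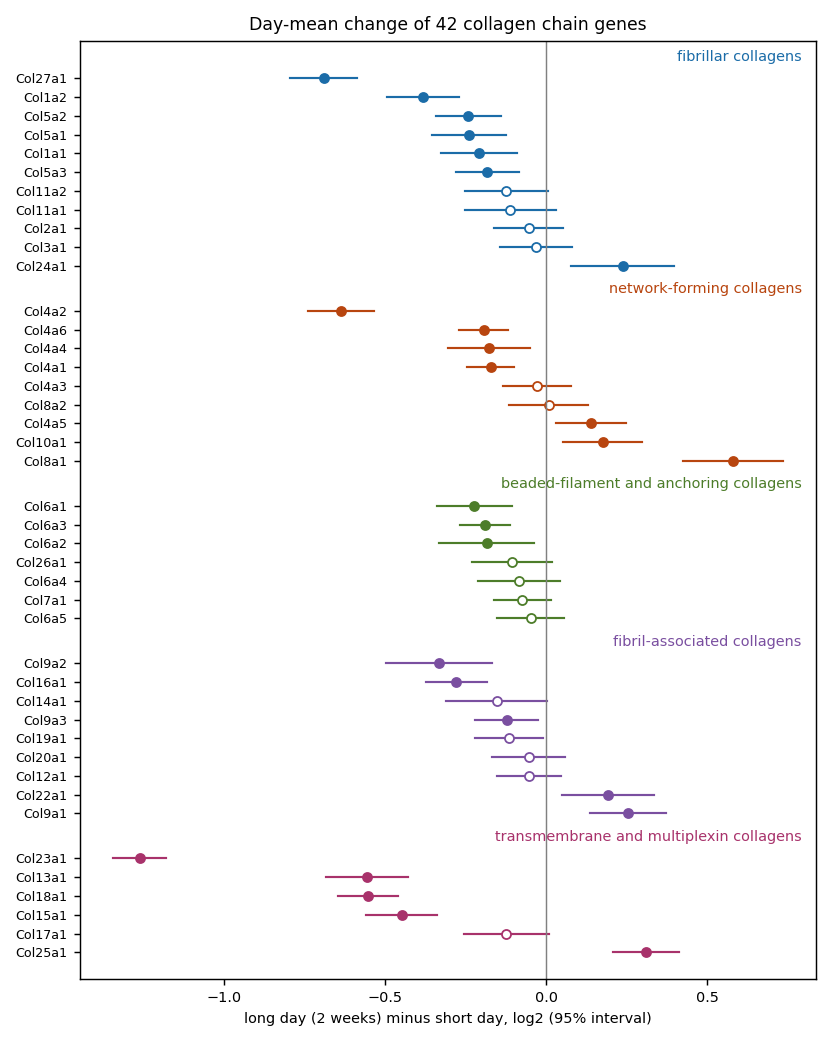
Day-mean difference between long and short days (log2, horizontal axis) for the 42 collagen genes, grouped by class, with 95% intervals; filled points passed the limma test and open points did not. Col23a1 lies farthest to the left at -1.26, and Col8a1 farthest to the right at 0.58.

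Col23a1, a transmembrane collagen, had the largest fall among the members. Its lowest, median and highest values were 11.98, 12.53 and 12.80 over the 12 short-day arrays and 10.98, 11.21 and 11.43 over the 12 long-day arrays. No long-day array reached a short-day array. The mean fell by 1.26 ± 0.04, which is 2.40-fold (adjusted p = 3.58e-22 in limma), and the gap at single times ran from -0.91 to -1.69, widest at ZT4. Its other probe sets fell as well, by less, with -1.02 and -0.99.

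Of the 6 transmembrane and multiplexin collagens 4 fell, Col23a1 included, and 1 rose. Col17a1, dim on every array, did not pass (-0.12, adjusted p = 0.117 in limma). Col13a1, found at sites where cells adhere to matrix, had short-day values from 7.80 to 8.55 and long-day values from 7.17 to 7.79. It fell by 0.56 ± 0.06 (limma, adjusted p = 4.35e-09), with no overlap between the arrays. The multiplexins Col18a1, the source of endostatin, and Col15a1, both of vascular basement membranes, fell by 0.55 ± 0.05 and 0.45 ± 0.05 (limma, adjusted p = 8.73e-12 and 2.02e-08). For Col18a1 the short-day values of 8.67 to 9.31 met the long-day values of 8.19 to 8.68 at their edge, and its second probe set fell by 0.49. Col25a1, a neuronal transmembrane collagen, rose by 0.31 ± 0.05 (adjusted p = 3.54e-06), from 12.85 to 13.26 in short days to 13.32 to 13.53 in long days. Its arrays did not overlap, but a dimmer second probe set gave -0.09. Col25a1 is also listed here among 8 markers of tanycytes, the glia-like cells that line the floor of the third ventricle, of which 2 were higher, Col25a1 included, and 3 lower, with a list median of -0.08.

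**Figure D2:**
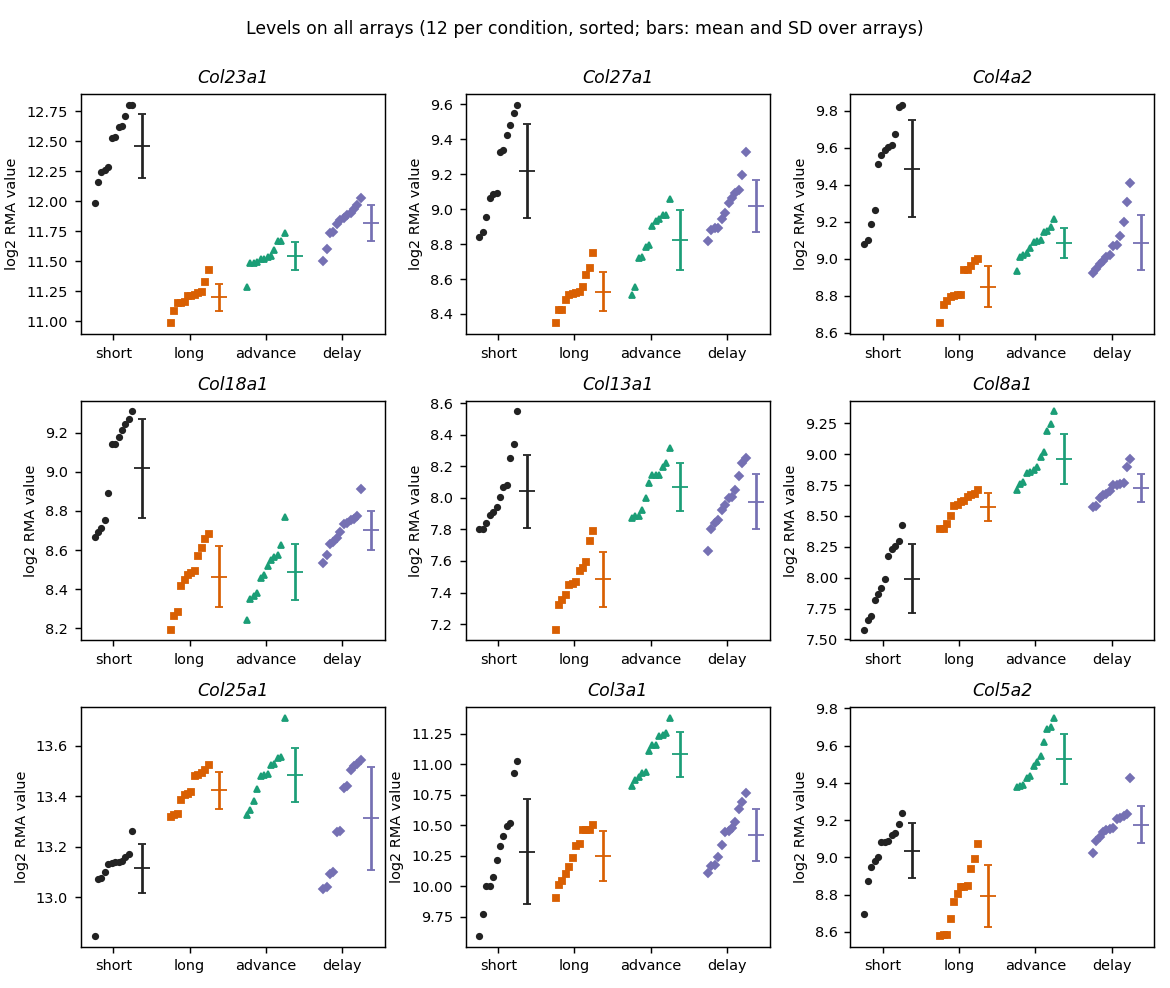
Log2 RMA values of 9 collagen genes on every array (12 per regime, sorted within a regime), with mean and SD as bars. Long-day arrays of Col23a1, Col27a1, Col4a2 and Col13a1 all lie under the short-day arrays, and advance arrays of Col3a1 all lie above the delay arrays.

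Among the 11 fibrillar collagen genes 6 fell and 1 rose. Col27a1, a minor fibrillar chain best known from cartilage, had short-day values of 8.84 to 9.59 and long-day values of 8.35 to 8.75, with no overlap. It fell by 0.69 ± 0.05, or 1.61-fold (limma, adjusted p = 5.13e-13), and its second probe set fell by 0.76. Col1a2, a chain of type I collagen, fell by 0.38 ± 0.05, and its partner chain Col1a1 by 0.21 ± 0.06 (limma, adjusted p = 4.24e-07 and 0.00245). The type V chains Col5a1 and Col5a2, which set the width of type I fibrils, each fell by 0.24, and Col5a3 fell by 0.18. Col24a1, a minor fibrillar chain linked to bone, rose by 0.24 ± 0.08 (limma, adjusted p = 0.011). Col3a1, which forms fibres with type I collagen in soft tissue, did not pass, with a difference of -0.03 and a 95% interval from -0.14 to 0.08.

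Type IV chains of basement membranes did not move as a block. Col4a2 had short-day values of 9.08 to 9.83 and long-day values of 8.65 to 9.0, without overlap, and fell by 0.64 ± 0.05, or 1.55-fold (limma, adjusted p = 2.41e-12). Its partner in the common type IV molecule, Col4a1, fell by 0.17 ± 0.03 (adjusted p = 8.74e-05), and the second Col4a1 probe set fell by 0.22. The intervals of both changes, from -0.74 to -0.53 for Col4a2 and from -0.24 to -0.10 for Col4a1, do not overlap, although the difference between the genes was not tested. Col4a6 fell by 0.19, Col4a4 fell by 0.18 and Col4a5 rose by 0.14, while Col4a3 was at -0.03 without passing. Further probe sets of Col4a4 gave 0.08 and 0.00, and that of Col4a6 gave -0.06.

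Col8a1, a chain of the short networks around vessels, had the largest rise among the members when each was read from its brightest probe set. It went from 7.58 to 8.43 over short-day arrays to 8.39 to 8.71 over long-day arrays and rose by 0.58 ± 0.08 (limma, adjusted p = 8.33e-08). The dimmer probe sets of Col8a1 gave -0.15 and 0.04, so the rise rests on 1 probe set. A probe set of Col22a1 that was not the brightest rose by more, 0.88. Col10a1, known from cartilage, rose by 0.18 on a dim signal.

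Of the beaded-filament chains Col6a1, Col6a2 and Col6a3, the chains of type VI collagen around cells, fell by 0.22, 0.19 and 0.19, and each was lower at all 6 times. The other 4 members of the class, Col6a4, Col6a5, Col7a1 and Col26a1, did not pass. Fibril-associated collagens split, with 3 lower, 2 higher and 4 not passing by their brightest probe sets. In a fit over all probe sets, dimmer ones of Col19a1 (-0.37), Col12a1 (0.34) and Col20a1 (-0.19) did pass. Their adjusted p in limma were 0.000235, 0.00112 and 0.00991. The remaining probe sets of these genes and all those of Col14a1 did not pass. Col9a2 and Col9a3 fell by 0.33 and 0.12 while Col9a1, a chain of the same type IX molecule, rose by 0.25. The second, dimmer Col9a1 probe set gave 0.03 and did not pass in a fit over all probe sets (limma, adjusted p = 0.687). Further probe sets of Col9a3 gave -0.26 and -0.09. Col16a1 fell by 0.28, and Col22a1, known from tissue junctions, rose by 0.19, with 0.88 and 0.41 in its other probe sets.

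Arrays of long and short days did not overlap for 4 members that were lower (3.24% of all genes) and for 1 that was higher (2.07% of all genes). Unused probe sets numbered 25 for members that passed, and 20 of these gave the sign of the chosen probe set.

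Markers of other cells in the punch moved beside these values. Of 10 pericyte and smooth muscle markers 5 were lower in long days and none higher, Pdgfrb at -0.67 and Notch3 at -0.53 among them. Endothelial markers were lower for 5 of 10 and higher for 1, with Plvap, of fenestrated vessels, at -0.52. Markers of meninges and fibroblasts were higher for 8 of 12 and lower for none. Their mean level on single arrays ran from 9.48 to 10.43 in short days and from 9.94 to 10.62 in long days, and that of the pericyte list from 8.05 to 8.57 and from 8.00 to 8.31. No marker of these 3 lists lay under the first quartile on every array. Their part in the collagen differences was not tested. With the actin difference as a covariate 19 members and 5006 of all genes passed, against 27 and 8503 in the main fit. With only the first or only the second array of each pair 13 and 15 members passed, and 4579 and 5337 of all genes.

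Over the short day, 14 of the 42 members varied with time of day (F test in limma, adjusted p under 0.05), against 8.91% of all genes. Each of the 14 had its highest mean at ZT20, ZT0 or ZT4, the end of the night and the start of the light, and its lowest at ZT8, ZT12 or ZT16, from lights-off into the night. Fitted 24 h cosines placed their peaks between ZT20.5 and ZT2.77, a span of 6.29 h. Of the 1621 genes that varied under short days, 67.7% also peaked in that span. Differences between the highest and lowest time ran from 0.42 to 1.15, with a median of 0.60. Over the same short day 5 of 12 meninges and fibroblast markers, 5 of 10 endothelial markers and 2 of 10 pericyte and smooth muscle markers also varied, and their part in the collagen courses was not tested.

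Col3a1 had the clearest course. Its arrays stood at 10.50 and 10.42 at ZT0, 11.03 and 10.93 at ZT4, 9.59 and 10.07 at ZT8, and 10.52 and 10.33 at ZT20, with means of 9.89 at ZT12 and 10.11 at ZT16. Both ZT4 arrays were above all others, and the mean at ZT4 was 2.21-fold that at ZT8 (adjusted p = 1.85e-06 in limma). A second, dim probe set of Col3a1 also varied (adjusted p = 0.00276).

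Col23a1 followed with 12.63 and 12.80 at ZT0, 12.80 and 12.71 at ZT4, 12.28 and 12.26 at ZT8, 12.24 and 11.98 at ZT12, 12.16 and 12.53 at ZT16, and 12.52 and 12.62 at ZT20. The low came at ZT12, after lights-off, and the range was 0.64 (adjusted p = 6.61e-05 in limma). In a fit over all probe sets the other Col23a1 probe sets had short-day adjusted p of 0.0618 and 0.0925, and did not pass. Type IV chains Col4a1, Col4a4, Col4a2 and Col4a3 varied as well, with adjusted p of 0.000281, 0.000351, 0.00258 and 0.0431 in limma. Col4a4 had the widest range of these, from 8.05 at ZT8 to 9.03 at ZT0.

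Multiplexins Col18a1 and Col15a1 passed with adjusted p of 0.00167 and 0.00218, and Col27a1 with 0.00447 (limma). Col18a1 dropped from 9.14 and 9.31 at ZT4 to 8.71 and 8.69 at ZT8. Weaker calls were Col6a1 (0.0311), Col1a2 (0.0346), Col11a1 (0.0406) and Col9a1 (0.049), all adjusted p in limma. Of the 14, 11 also passed the long-minus-short test, 10 of them as lower in long days. That test was passed by 27 of all 42 members and by 46.7% of all genes. Both tests use the same short-day arrays, and the share among all genes that varied was not counted. A fit to the short-day arrays alone, with fewer arrays to estimate the spread, called 2 members.

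In the fit over all 48 arrays the other regimes showed less. A single member, Col1a1, varied under long days (1.63% of all genes did), 2 members under advance (2.58% of all genes) and 1 under delay (1.52% of all genes). With each regime fitted alone, 2 members were called under short days, 0 under long days, 7 under advance and 1 under delay. Counts over all genes were then 89, 83, 1325 and 92, so the order of the regimes depends on the shared spread. In the fit over all arrays, 10, 8 and 14 members had an unadjusted p under 0.05 under long days, advance and delay. The same was true of 1705, 2199 and 2101 of all 18194 genes. Daily ranges were wider in short than in long days for 36 of 42 members and for 69.6% of all genes, with member medians of 0.45 and 0.26.

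Col1a1, the type I chain, was the only member to vary in all 4 regimes. Under short days it stood at 8.44 and 8.33 at ZT0, 8.06 and 8.21 at ZT4, 7.49 and 7.89 at ZT8, 7.95 and 7.66 at ZT12, 8.13 and 7.88 at ZT16, and 8.56 and 8.60 at ZT20 (adjusted p = 0.000237 in limma). Under long days the values were 8.13 and 8.17 at ZT0, 8.30 and 7.92 at ZT4, 8.15 and 7.98 at ZT8, 7.84 and 7.82 at ZT12, 7.59 and 7.65 at ZT16, and 7.50 and 7.63 at ZT20 (adjusted p = 0.0174). ZT20 was thus the highest time in short days and the lowest in long days.

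On the first long day Col1a1 kept an early-morning high in both regimes. Advance arrays were highest at ZT0 and ZT20, with means of 8.86 at each, and lowest at ZT8, with 8.03 (adjusted p = 0.00011 in limma). Delay arrays were highest at ZT0, with a mean of 8.58, and lowest at ZT12, with 7.70 (adjusted p = 0.000339 in limma). Cosine peaks fell at ZT21.9 under short days, ZT4.65 under long days, ZT21.5 under advance and ZT0.0734 under delay. The long-day call was lost without the first long-day ZT20 array (adjusted p = 0.0695). The second, dimmer Col1a1 probe set, with a short-day range of 0.61, did not pass in short days in a fit over all probe sets (limma, adjusted p = 0.0704). Col4a1 was the other member to vary under advance (adjusted p = 0.00911 in limma), high at ZT20 and ZT0 and low at ZT8, and without the first advance ZT8 array 1 member was called.

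**Figure D3:**
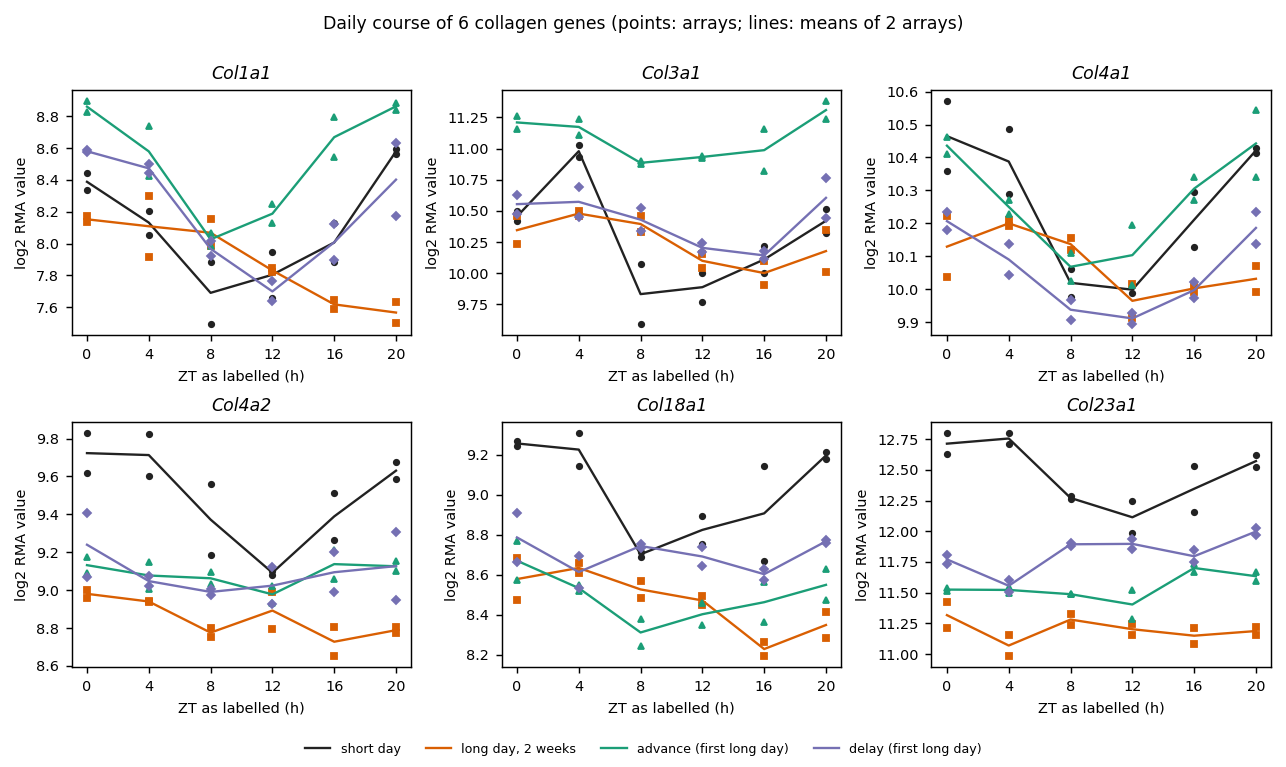
Log2 RMA values of 6 collagen genes at 6 times of day (ZT, hours) in 4 regimes; points are arrays, lines join means of 2 arrays. Col1a1 at ZT20 is high in short, advance and delay and low in long days, and the short-day line of Col23a1 lies above all others.

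The daily course itself differed between long and short days for 9 of the 42 members (interaction F test in limma), against 4.30% of all genes. They were Col1a1 (adjusted p = 0.000264), Col4a4 (0.000524), Col23a1 (0.00222), Col3a1 (0.00483), Col9a1 (0.00504), Col11a1 (0.0283), Col15a1 (0.0414), Col4a1 (0.044) and Col18a1 (0.0483). Col9a1 had its highest long-day mean at ZT8, 9.54, where its short-day mean was lowest, 8.63. In a fit over all probe sets its second probe set passed neither this test nor the short-day test (limma, adjusted p = 0.421 and 0.295). Col4a4 likewise had a long-day mean of 8.66 at ZT8 and a short-day mean of 8.05. By cosine, Col1a1 peaked 6.74 h later by ZT in long than in short days and 2.74 h later by the clock. Col4a1 peaked 4.38 h later by ZT and 0.38 h later by the clock.

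These 9 depend on how times are matched. When long and short days were paired by clock hour in place of ZT, Col23a1 alone still passed, with 85 of all genes. Matched by ZT in a fit over all probe sets, the other Col23a1 probe sets did not pass (limma, adjusted p = 0.293 and 0.638). Second probe sets of Col1a1 (0.296), Col3a1 (0.0817), Col4a1 (0.179), Col11a1 (0.83) and Col18a1 (0.191) did not pass either. One further Col4a4 probe set passed (0.00331) and another did not (0.83). Without the arrays high in growth hormone or prolactin mRNA 3 members passed, and 311 of all genes in place of 782. Leaving out single arrays gave 5 to 10 members, and 499 to 1456 of all genes. The count was 5 without the first short-day array of ZT8 or ZT20, the first long-day array of ZT4, or the second long-day array of ZT8 or ZT12. Col23a1 spanned 0.64 over the short day and 0.25 over the long day, where its arrays ran between 10.98 and 11.43.

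**Figure D4:**
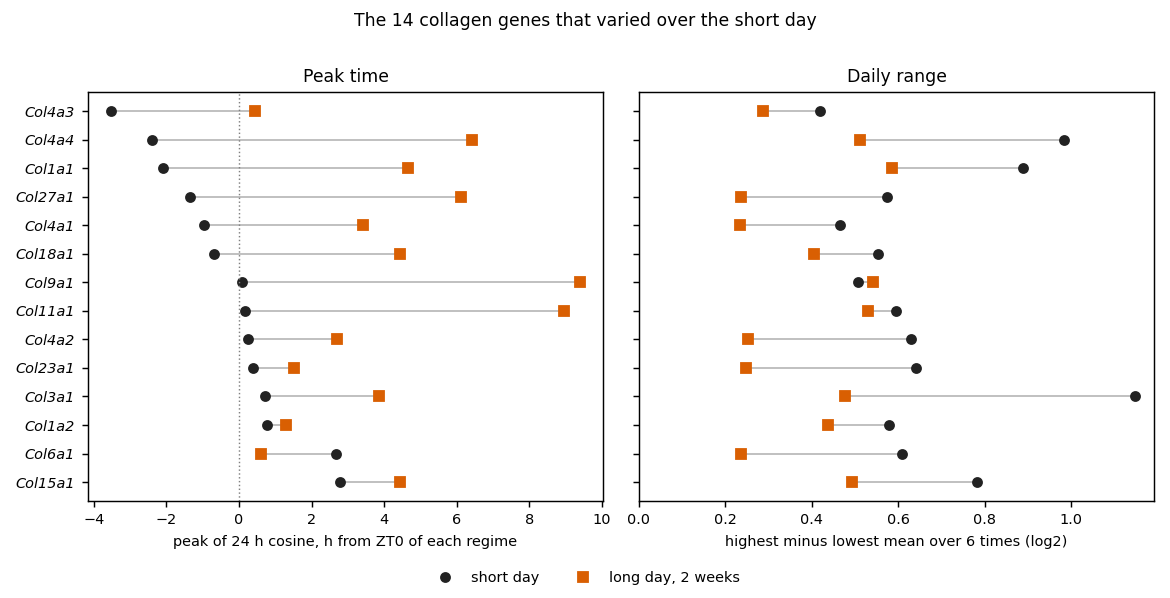
The 14 collagen genes that varied over the short day: left, time of the 24 h cosine peak in hours from ZT0 of each regime; right, range of the 6 group means (log2). Circles are short days and squares are long days. Short-day peaks lie within 6.29 h, and the range is wider under short days for 13 of the 14, Col9a1 being the exception. The 14 were chosen by their short-day test, which itself favours a wide short-day range.

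Advance and delay mice had the same labelled age and differed in the side of the night to which light was added. They could also differ in how sampling fell relative to that light. On the reading of the design text given below, delay arrays at ZT0, ZT4 and ZT8 came before it. In the day means these differences cannot be told apart. Of the 42 members 19 passed, 12 higher and 7 lower in advance than in delay. Over all genes 10.3% were higher and 13.8% lower.

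Col3a1 differed most among the members. Its advance arrays had lowest, median and highest values of 10.82, 11.13 and 11.38, and its delay arrays 10.11, 10.45 and 10.77. No array overlapped, the mean was higher in advance at all 6 times, and the difference was 0.67 ± 0.05, or 1.59-fold (limma, adjusted p = 2.75e-10). It was the only member with separate arrays in this comparison (0.297% of all genes were separate and higher). A second probe set of Col3a1 gave 0.47.

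Further fibrillar and type VI chains were higher in advance. Col5a2 was higher by 0.35 ± 0.05, Col1a1 by 0.34 ± 0.06 and Col6a1 by 0.27 ± 0.06 (limma, adjusted p = 3.12e-06, 3.78e-05 and 0.000731). Col6a2, Col5a1 and Col24a1 were higher by 0.23, 0.17 and 0.23. The network chains Col4a1, Col8a1, Col8a2 and Col4a3 were higher by 0.21, 0.23, 0.19 and 0.15, and Col25a1 by 0.17. A second Col1a1 probe set gave -0.04, and the dimmer Col8a1 probe sets gave -0.05 and -0.02. Second probe sets of Col4a1 and Col4a3 gave 0.21 and 0.19.

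Of the 7 lower members, Col19a1, a fibril-associated chain, stood at -0.32 ± 0.05 and Col23a1 at -0.27 ± 0.04 (limma, adjusted p = 1.78e-05 and 5.96e-06). Col18a1 was at -0.21, Col27a1 at -0.20, Col9a1 at -0.16, Col5a3 at -0.14 and Col16a1 at -0.13. Col19a1 was narrow in delay, from 8.03 to 8.16, and wide in advance, from 7.43 to 8.08. Col4a2, with a large change after 2 weeks of long days, had means of 9.09 in both regimes.

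**Figure D5:**
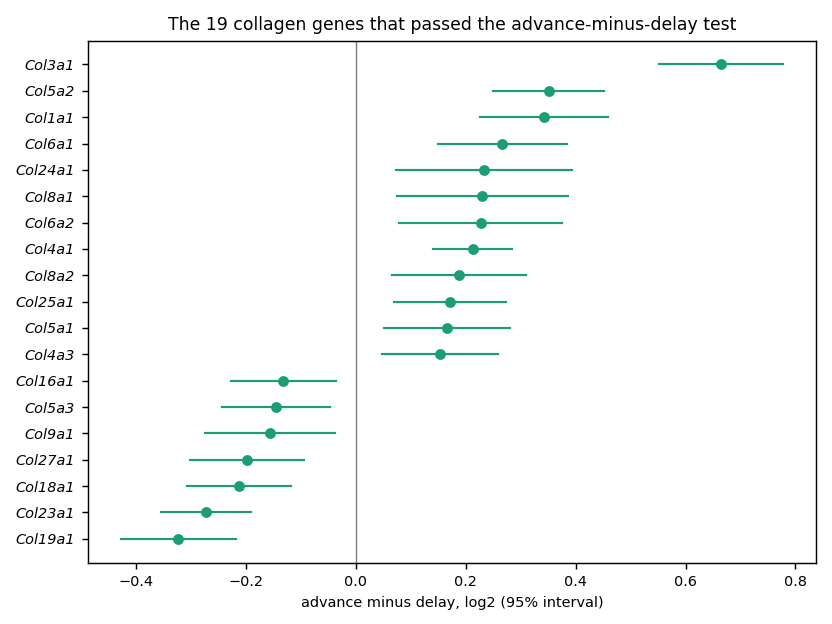
Difference in day mean between advance and delay (log2, with 95% intervals) for the 19 collagen genes that passed the limma test. Col3a1 is highest at 0.67 and Col19a1 lowest at -0.32.

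Beside these differences, 11 of 12 meninges and fibroblast markers were higher in advance than in delay and none lower. Their mean level on single arrays ran from 10.36 to 10.78 in advance and from 9.93 to 10.54 in delay. Slc6a13 was higher by 0.52 ± 0.08 and Igf2 by 0.44 ± 0.07. The endothelial list had 3 of 10 higher and the pericyte list 1 of 10. Whether these cells account for the collagen values was not tested. With the actin difference as a covariate, 10 members passed in place of 19, and 1896 of all genes in place of 4382.

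Set against short days, the first long day, taken as the mean of the advance and delay group means, had 21 members higher and 5 lower. Over all genes 25.6% were higher and 29.5% lower. Col8a1 (0.85 ± 0.07), Col3a1 (0.47 ± 0.05) and Col11a1 (0.45 ± 0.06) had the largest rises. Advance and delay means were 8.96 and 8.73 for Col8a1 (7.99 in short days) and 8.89 and 8.87 for Col11a1 (8.42). For Col3a1 they were 11.08 and 10.42 (10.28 in short days), so its rise lay mostly in advance. Delay minus short for Col3a1 did not pass at ZT0 to ZT8 (0.10) or ZT12 to ZT20 (0.18). Col8a1 here and below is the 1 probe set on which its long-day rise rests. Col23a1 (-0.78 ± 0.03), Col18a1 (-0.42 ± 0.04), Col4a2 (-0.40 ± 0.04), Col27a1 (-0.30 ± 0.04) and Col4a1 (-0.09 ± 0.03) were the 5 that were lower. Limma adjusted p for these 8 ran from 6.29e-18 to 0.012. Beside these, 10 of 12 meninges and fibroblast markers were higher and none lower on the first long day, with a list median of 0.36. Of the endothelial markers 4 of 10 were higher and 1 lower, of the pericyte markers 5 of 10 higher and 2 lower, and of 10 hypothalamic neuron markers none higher and 5 lower. Their part in the collagen values was not tested. Both this comparison and the long-day comparison use the same short-day arrays. Of the 20 members that fell after 2 weeks of long days, 5 were also lower on the first long day, 7 were higher and 8 did not pass.

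The series' design text places the start of sampling in the delay regime at its lights-on, ZT0. Read so, the delay mice at ZT0, ZT4 and ZT8 had not yet received light beyond the short-day schedule; had sampling run into the following day, they would have, and the labels do not settle which. A comparison of these 6 arrays with the 6 short-day arrays at the same times, added after the data had been seen, called 22 of 42 members, 16 higher and 6 lower. For all genes the shares were 18.7% higher and 26.9% lower. Col23a1 stood at 11.81 and 11.73, 11.61 and 11.51, and 11.90 and 11.88 at those times in delay, each below every short-day array. Its difference was -0.84 ± 0.06 (limma, adjusted p = 4.84e-12). Col8a1 was higher by 0.82 ± 0.11, Col11a1 by 0.43 ± 0.10 and Col9a1 by 0.40 ± 0.08, and Col4a2 and Col18a1 were at -0.51 and -0.35.

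At ZT12, ZT16 and ZT20, after the start of the extra light on the same reading, 14 members passed against short days, 9 higher and 5 lower, beside 15.5% and 12.7% of all genes. Col23a1 stood at -0.45 ± 0.06 there, and 1 of the 5 lower members was Col6a5, which is dim on every array. The change from the earlier to the later times was 0.39 for Col23a1 (limma, adjusted p = 0.0135), and it was the only member to pass (0.846% of all genes passed as higher and 0.198% as lower). Between the earlier and the later times the mean of Col23a1 fell from 12.58 to 12.34 in short days and rose from 11.74 to 11.90 in delay. For the step from ZT8 to ZT12 alone, its short-day means were 12.27 and 12.11 and its delay means 11.89 and 11.90.

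Ordered by mean, Col23a1 stood at 12.46 ± 0.27 in short days, 11.82 ± 0.15 in delay, 11.55 ± 0.12 in advance and 11.20 ± 0.11 in long days (SD, n = 12 arrays). Neighbours in this order overlapped on single arrays, while short and advance, short and long, and delay and long did not. Col3a1 had another order, with 11.08 ± 0.18 in advance, 10.42 ± 0.22 in delay, 10.28 ± 0.43 in short and 10.25 ± 0.21 in long days. Its delay, short and long values overlapped widely.

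No member passed for the first 4 h of extra light. From ZT16 to ZT20 under advance, relative to the same step in short days, 0 of 42 passed in limma (0.220% of all genes). The lowest adjusted p was 0.754, and 2 members had an unadjusted p under 0.05, as did 1128 of all 18194 genes. From ZT8 to ZT12 under delay 0 passed in limma (0.0385% of all genes). The lowest adjusted p was 0.627, and 3 members had an unadjusted p under 0.05, as did 1380 of all 18194 genes. Col1a1 had differences of -0.38 ± 0.20 in both steps, and intervals of this width do not exclude changes of such size.

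Some fibrillar chains varied together between arrays of 1 group. Over the 24 differences between the arrays of a pair, r was 0.76 for Col1a2 with Col3a1 and 0.78 for Col1a2 with Col5a2. It was 0.54 for Col3a1 with Col5a2, and for Col1a1 it was 0.30 with Col1a2, 0.43 with Col3a1 and 0.36 with Col5a2. Col1a2 had r of 0.85 with the mean of the meninges and fibroblast markers, Col3a1 had 0.74 and Col1a1 had 0.32. Both genes of such a correlation were read from the same arrays and so share punch, pool and hybridisation, and r is given with no test. Col23a1 had r of 0.09 with the same marker mean, and Col4a1 had -0.30.

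Over the 24 group means, centred within each regime, Col1a1 and Col4a1 had r of 0.90, but between arrays of a pair they had -0.11. Their shared pattern was thus over the times of day. Col4a1 and Col4a2 had 0.78 over group means and 0.33 between arrays of a pair. With the mean of the meninges and fibroblast markers, r over group means was 0.72 for Col4a1 and 0.20 for Col23a1. It was 0.80 for Col1a2, 0.75 for Col3a1 and 0.66 for Col1a1.

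Upstream sequences of Col1a2 and Col3a1 are shown because these chains varied together and their genes lie on different chromosomes. They are the 250 bases before the start of each gene on the plus strand of GRCm38.p6 in RefSeq, from chr6:4505368-4505617 and chr1:45311288-45311537. Capitals mark CCAAT boxes (CCAAT) and GC boxes (GGGCGG) found on either strand.
Col1a2: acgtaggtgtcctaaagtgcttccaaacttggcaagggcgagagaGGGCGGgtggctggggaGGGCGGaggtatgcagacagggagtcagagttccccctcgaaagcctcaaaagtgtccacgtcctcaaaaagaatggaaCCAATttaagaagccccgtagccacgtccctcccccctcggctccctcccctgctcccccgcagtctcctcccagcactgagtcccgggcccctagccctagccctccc
Col3a1: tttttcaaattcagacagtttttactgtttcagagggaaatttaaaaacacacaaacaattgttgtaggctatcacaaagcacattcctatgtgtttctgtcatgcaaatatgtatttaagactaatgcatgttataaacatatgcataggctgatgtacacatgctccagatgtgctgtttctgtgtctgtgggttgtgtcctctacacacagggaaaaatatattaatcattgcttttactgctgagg
Col1a2 holds 3 such matches and Col3a1 none in this stretch.

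RefSeq promoter windows, 250 bases before to 50 after a start, were matched by symbol for 33 of the 42 members, in 36 windows. CCAAT on either strand occurred in 13 of the 36 and in 37.4% of all windows, and GGGCGG in 22 of the 36 and in 35.7% of all windows. The clock-related E-box CACGTG occurred in 0 of the 36 (7.15% of all windows) and TTANGTAA, the core of the D-box, in 0 (2.32% of all windows). A count of 0 says only that these letters are not in these windows. The windows of Col4a1 and Col4a2 lie head to head on opposite strands and share 78 bases.

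Genes that make, cut and bind collagen were counted from lists. For comparison with all the list counts below, 17.6% of all genes were higher and 29.1% lower in long than in short days. In advance 10.3% of all genes were higher than in delay. Of 19 genes for chain modification and folding, 4 were higher and 9 lower in long than in short days. P3h3, a prolyl hydroxylase family member, fell by 0.62 ± 0.06, Colgalt1, a collagen galactosyltransferase, fell by 0.30 ± 0.04, and Fkbp14, a collagen chaperone, rose by 0.25 ± 0.04. P4ha2, a prolyl hydroxylase subunit, varied in short days (adjusted p = 0.0172 in limma) with a peak at ZT13.4, away from the collagen peaks, and in long days (adjusted p = 1.65e-05).

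Among 10 genes for processing and crosslinking, 2 were higher and 5 lower. Tll1, a procollagen protease, rose by 1.01 ± 0.10, and Pcolce, an enhancer of that cleavage, fell by 0.43 ± 0.07. Lox and Loxl1, which crosslink chains, varied in short days with adjusted p of 8.39e-05 and 2.35e-05 in limma and peaks at ZT22.0 and ZT23.3. Lox was also higher in advance than in delay, by 0.44.

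Of 18 breakdown genes 3 were higher and 6 lower, near the shares of all genes. The gelatinase Mmp2 fell by 0.49 ± 0.06 and the cathepsin gene Ctsl rose by 0.20 ± 0.03. Mmp14, a membrane-bound collagenase, did not pass for day mean (-0.02) but varied in short and long days (adjusted p = 1.93e-07 and 6.59e-06 in limma).

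Collagen receptors were higher for 3 and lower for 3 of 9, led by the integrin subunit Itgb1, which rose by 0.99 ± 0.08. No receptor varied over the short day. Basement membrane partners were lower for 8 of 14 and higher for none, the laminin chain Lama5 at -0.40 and agrin (Agrn) at -0.30 among them. Of 13 fibril partners 3 were higher and 4 lower, with Prelp at -0.53, and 7 were higher in advance than in delay. This last list shares Dcn, Lum and Ogn with the fibroblast markers. Of 12 regulators in TGF-beta signalling, 6 were higher and 4 lower; Tgfb2 rose by 0.49 ± 0.07, and Ski, a repressor of the pathway, fell by 0.41 ± 0.05.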

How the data were processed

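The series holds 48 Affymetrix arrays. Per the submitters' processing notes, the deposited log2 values were made by RMA in R 2.8.0; no genome build is given in the sources used here. Probe sets with 1 gene symbol in the platform annotation were kept, and the brightest of a gene stood for it. A group-means model over 24 groups of 2 arrays (24 residual degrees of freedom) was fitted with limma 3.58.1 in R 4.3.3, with eBayes and an intensity trend, and p-values were adjusted by Benjamini-Hochberg over 18194 genes. Day means were compared by contrasts and daily courses by F tests. Peaks come from 24 h cosines. The scripts were tested on simulated data. Arrays limit the precision by their number. Alternatives were the mean of all probe sets, no dim genes, no trend, only the conditions compared, a replicate block, an actin covariate, arrays left out, and clock matching.

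The members and the gene lists were chosen with earlier results of these data known. Full statistics were given for at most 10 rises and 10 falls or the 10 smallest p of a test. Array replicate numbers were not treated as pairing the arrays, because the labels do not say that same-numbered arrays share a run. The median correlation of replicate differences between times was 0.03 in short days, 0.24 in long days, 0.07 in advance and 0.27 in delay. Of 15 pairs of times, 3, 14, 6 and 11 had a correlation above 0.1. An effect shared by same-numbered arrays was not tested, and fits with a replicate block are among the alternatives.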

Additional observations from a re-analysis of the deposited data

Results flagged for a closer look

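For 9 collagen genes the daily course differed between long and short days by a test of the difference itself, the interaction F test in limma over all genes. The adjusted p was 0.000264 for Col1a1, 0.000524 for Col4a4, 0.00222 for Col23a1, 0.00483 for Col3a1, 0.00504 for Col9a1, 0.0283 for Col11a1, 0.0414 for Col15a1, 0.044 for Col4a1 and 0.0483 for Col18a1. These values match the regimes by ZT. Matched by clock hour, Col23a1 kept its call, Col4a4 had an adjusted p of 0.062 and Col1a1 of 0.53. By ZT in a fit over all probe sets, the other Col23a1 probe sets did not pass (limma, adjusted p = 0.293 and 0.638). With the actin 3' to 5' difference as a covariate 7 members differed in course, and without the arrays high in growth hormone or prolactin mRNA 3 did. Over all genes 695 and 311 differed in these fits, against 782 in the main fit. The course also differed for 4 of 10 endothelial markers, 1 of 10 pericyte and smooth muscle markers and none of 12 meninges and fibroblast markers, and the part of these cells in the collagen courses was not tested.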

How the results depend on the processing

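Of 3382 repeats of 99 passing member results, 3056 kept the call, 325 lost it and 1 reversed: Col5a3, advance minus delay, was 0.019 with the mean of all probe sets. The 27 long-minus-short calls became 13 with arrays numbered 1 alone and 15 with those numbered 2 alone, 23 to 29 without single arrays and 28 with either replicate block. The 14 short-day calls became 2 with only the conditions compared, 10 to 17 without single arrays, and 17 or 19 with a replicate block. The long-day count of 1 became 0 with the mean of probe sets, with only the condition compared and without the second ZT16 and ZT20 arrays, 3 by cosine, and was 1 without each single array; without the first ZT20 array that member was not Col1a1. The advance count of 2 became 4 with the mean of probe sets, 7 with only the condition compared, 5 and 4 with the replicate block over all arrays and within conditions, 4 by cosine, and 1 to 3 without single arrays. The delay count of 1 became 2 with the mean of probe sets, 2 with the replicate block within conditions, 4 by cosine, and stayed at 1 without single arrays. The 9 course differences became 4 with only the conditions compared, 3 without arrays high in Gh or Prl, 1 by clock time and 5 to 10 without single arrays. They dropped by over 1.5 times without short ZT8 replicate 1, short ZT20 replicate 1, long ZT4 replicate 1, long ZT8 replicate 2 or long ZT12 replicate 2. The 19 advance-minus-delay calls became 10 with the actin covariate and 14 to 18 without single arrays. The 26 first-day calls became 25 to 29 without single arrays, and both 4 h steps stayed at 0. Counts over all genes moved as well. For long minus short days they went from 8503 to 4579 and 5337 with arrays numbered 1 or 2 alone. For the short day they went from 1621 to 89 with only the condition compared. Course differences went from 782 to 271 with only the conditions compared, 311 without arrays high in Gh or Prl and 85 by clock time. Advance-minus-delay calls went from 4382 to 1896 with the actin covariate. The cause of these shifts was not tested. Col6a5 and Col17a1 lay under the first quartile on every array, which limits what their values show.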
